A study of Mus musculus with 9 samples.

Results

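Livers of NSG mice that had received extracellular vesicles (EVs) of MDA-MB-231 cells were compared with livers of NSG mice that had received phosphate-buffered saline (PBS), across all genes with a measurable level. The genes are the rows with an Ensembl mouse identifier and a mean of at least 1 TPM over these 6 libraries, 12885 of the 61473 features in the table. TPM is a relative abundance, corrected for transcript length and scaled to the same sum in each library, so it can be compared between genes but keeps no read depth. The features left out are 6059 loci assembled from the reads and the Ensembl rows below the limit, the nearest at a mean of 0.998 TPM against 1.00 TPM for the lowest gene kept. Both groups are labelled wild type on the NSG background, an immunodeficient strain that lacks mature T, B and NK cells. Injections went into the tail vein for 5 weeks, and RNA libraries were made from 1 µg of total liver RNA, 3 per group. They are called PBS 1 to 3 and MDA-MB-231 EV 1 to 3, and values per library are always given in that order, PBS first. Another group of the series, given vesicles of MCF-10A cells, was not used, except in 1 alternative fit. The labels do not say that each sample is a separate mouse, nor give the sex, age, dose or interval, so every p-value measures only the spread between these samples.

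Extracellular vesicles are membrane-bound particles that cells release with protein and RNA inside. After injection into the blood they reach the liver, where endothelial cells, resident macrophages called Kupffer cells and hepatocytes can take them up. MDA-MB-231 is a human triple-negative breast cancer line. Hepatocytes, the main cells of the liver, make most plasma proteins, handle sugar, lipid, amino acids and iron, and clear foreign compounds. The series title places the question in miR-9-5p, a small RNA secreted by the cancer cells, and in the cholesterol balance of the host. The mature miR-9-5p is shown because it is the cargo the study is named for, with its seed, bases 2 to 8, the stretch that pairs with target messages, in capitals (RefSeq, GRCm38.p6).

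miR-9-5p: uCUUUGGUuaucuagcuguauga

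The mouse genes that encode it, Mir9-1, Mir9-2 and Mir9-3, and the host transcript Mir9-3hg were listed at 0 TPM in all 9 libraries of the series. These rows measure precursor transcripts made in the liver, not a mature miRNA brought by vesicles.

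All 6 libraries carried liver RNA. The 10 hepatocyte markers, Alb, Apob, Ttr, Cps1, Hnf4a, Serpina1c, Tat, Cyp3a11, Fgb and Apoa1, were all above the limit, with summed levels of 39988 to 96792 TPM after PBS and 40359 to 102956 TPM after MDA-MB-231 EVs. Of 12 lymphocyte markers 1 was above the limit: Ighm, the heavy chain of immunoglobulin M, at 5.93 to 32.4 TPM. The B cell markers Cd79a and Ms4a1 were listed at 0 in every library, and the T cell marker Cd3e reached at most 0.22 TPM. Igkc and Cd79b reached at most 3.02 and 1.53 TPM. In whole liver, fewer cells of a type and less RNA per cell cannot be told apart.

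A library from each group stood apart. PBS 1 and MDA-MB-231 EV 3 had a correlation over genes of 0.910 with each other, on log2(TPM + 1), while PBS 1 had 0.801 and 0.844 with its own group and MDA-MB-231 EV 3 had 0.742 and 0.775 with its own. The other 4 libraries gave 0.864 to 0.937 among themselves. The first principal component, 51.7% of the variance, placed these 2 libraries on one side and the other 4 on the other. Of that second set MDA-MB-231 EV 1 was farthest out on the second component, 22.1% of the variance. Values without PBS 1 and MDA-MB-231 EV 3 are therefore given beside some of the results, a choice made after seeing the data. The 13 mitochondrially encoded protein genes held 24.1%, 11.8% and 7.83% of TPM in PBS 1 to 3 and 6.44%, 4.74% and 10.9% in MDA-MB-231 EV 1 to 3. The groups overlap in this share, and its mean was 7.22 percentage points lower after MDA-MB-231 EVs (two-sided exact permutation test, p = 0.2, where 3 against 3 cannot go below 0.1). The difference was -2.47 percentage points without PBS 1 and -4.23 without PBS 1 and MDA-MB-231 EV 3.

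**Figure D1:**
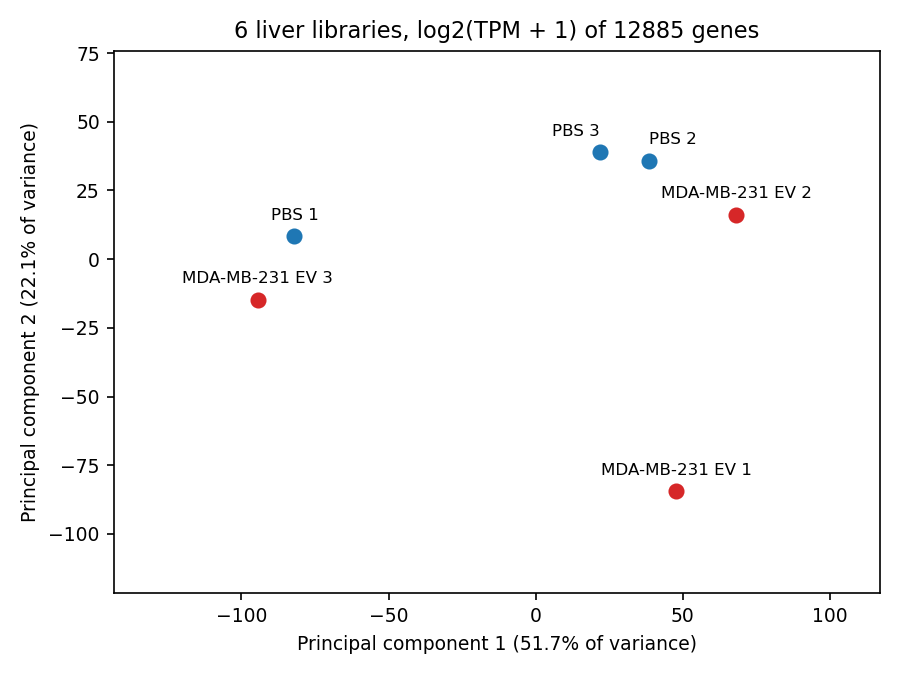
Scores of the 6 libraries on the first and second principal components of log2(TPM + 1) over all 12885 genes, with PBS in blue and MDA-MB-231 EV in red. PBS 1 and MDA-MB-231 EV 3 lie together on the left, and MDA-MB-231 EV 1 lies lowest.

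No gene passed the test between the groups. With limma on log2(TPM + 1), 0 of 12885 genes (0%) had an adjusted p under 0.05. The smallest adjusted p was 0.34, for the pseudogene Gm10288, and every other gene stood at 0.9998 or above. At an unadjusted p under 0.05 there were 173 genes (1.34%), 103 higher (0.799%) and 70 lower (0.543%) after MDA-MB-231 EVs, where 644 would be expected with no difference. The log2 changes below are therefore descriptions of these libraries, each given as MDA-MB-231 EV minus PBS on the log2(TPM + 1) scale, where low genes show less than their true ratio. A log2 change of 1 corresponds to a doubling of TPM + 1.

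The groups did not overlap for 667 genes with all 3 MDA-MB-231 EV libraries above all 3 PBS libraries (5.18%), and for 101 genes the other way round (0.784%). More genes lay above 0 than below it: 8988 (69.8%) had a positive log2 change, and the median over all genes was 0.21. That tilt moved with the scaling. Quantile normalization, which gives every library the same distribution, left 53.4% above 0, a median of 0.03 and 322 higher against 240 lower genes without overlap. Leaving out the mitochondrial genes and rescaling TPM gave 60.7%, a median of 0.11 and 420 against 157. The medians of gene groups are therefore set beside 0.21 in what follows, each with a range in brackets, the lowest and highest list median over the 6 fits with 1 library left out. The median of all genes itself ran from 0.12 to 0.40 over those fits, so the ranges cannot be read against 0.21.

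The spread within the groups set what could be seen. The median SD of a gene between libraries was 0.48 within PBS and 0.71 within MDA-MB-231 EV, on the log2(TPM + 1) scale. The 95% interval of a gene's change reached 1.21 to either side at the median, and 263 genes had an interval that stayed between -1 and 1. For the rest the interval reached past -1, past 1 or both. Of the 919 genes above 100 TPM, 45 were higher and 5 lower without overlap, against 75 and 27 of the 1906 genes between 1 and 2 TPM.

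**Figure D2:**
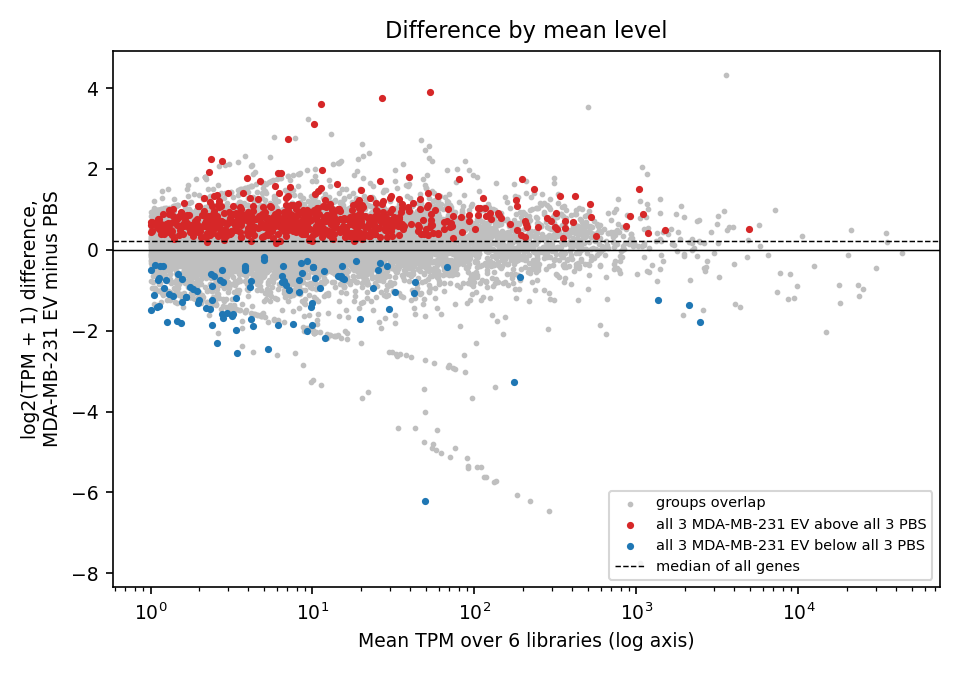
The log2(TPM + 1) difference between MDA-MB-231 EV and PBS, 3 libraries each, against the mean TPM of each gene on a log axis, with the 667 genes that were higher without overlap in red and the 101 that were lower in blue. The median of all genes, 0.21, lies above 0, and the lowest points at -2 and under are mostly genes whose groups overlap.

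The classes of genes differed in their share above 0. Of 11294 protein-coding genes 72.8% were above 0, and 629 were higher (5.57%) and 64 lower (0.567%) without overlap, beside 5.18% and 0.784% of all genes. Of 808 long non-coding genes 47.4% were above 0, with 21 higher (2.60%) and 22 lower (2.72%) without overlap. Small and ribosomal RNA genes, 70 in all, had 35.7% above 0 and a median of -1.05. The 158 genes with no entry in the GENCODE M21 annotation had 34.2% above 0 and a median of -1.12, and all 27 of them at an unadjusted p under 0.05 were lower after MDA-MB-231 EVs. Of these 27, 23 were listed at 0 in every library but PBS 2 and PBS 3. No test was made between the classes.

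The genes named first come from the 12 higher and 12 lower of smallest unadjusted p without overlap. The higher ones hold the metabolic enzymes Alas1, Sult2a2 and Nudt19, with the oxidative stress gene Osgin1, the ribosomal protein gene Rps7 and Cish, a brake on cytokine receptors. The lower ones hold the mitochondrially encoded mt-Co3 and mt-Nd6, the integrin Itgav, the histone gene H4c8 and Ccdc152, which overlaps the gene of a plasma selenoprotein. Each group is taken in turn, with the value in every library first.

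Osgin1 (ENSMUSG00000074063), a growth inhibitor induced by oxidative stress and a target of the transcription factor NRF2, had 31.9, 21.6 and 29.6 TPM in PBS 1 to 3 and 98.1, 63.7 and 64.5 TPM in MDA-MB-231 EV 1 to 3. Every MDA-MB-231 EV library lay well above every PBS library, and the log2 change was 1.40 ± 0.42 (SE; 95% interval 0.44 to 2.36; limma unadjusted p = 0.00973). Leaving out PBS 1 and MDA-MB-231 EV 3 gave 1.61, and leaving out any single library gave 1.20 to 1.51. The other NRF2 targets were less uniform. Txnrd1, a thioredoxin reductase, had 9.45, 10.3 and 10.3 TPM after PBS and 46.5, 16.5 and 11.7 TPM after MDA-MB-231 EVs, with the first of these libraries far above the rest. The quinone reductase Nqo1 had 2.06, 4.07 and 4.92 TPM against 9.04, 5.44 and 6.22 TPM, also without overlap, and a log2 change of 0.78 ± 0.43. For Gsr, glutathione reductase, 1.47, 4.81 and 3.76 TPM stood against 30.2, 5.26 and 4.67 TPM. Of the 14 list genes, 13 were above 0 and 12 lay over the all-gene median, the list median was 0.75 and 4 were higher without overlap, beside 5.18% of all genes. The list median ran from 0.43 to 0.96 over the fits with 1 library left out, and was 0.60 after quantile normalization.

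The stretch before the Osgin1 start site is printed because that gene leads the higher genes and is a known target of NRF2, which binds antioxidant response elements. In capitals is the 1 match to TGACTCA, the AP-1 motif, searched on both strands of the RefSeq window from 250 bases before to 50 bases after the start. The stretch covers chr8:119436997-119437146 on the plus strand of GRCm38.p6 and ends at the base before the start.

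Osgin1 promoter: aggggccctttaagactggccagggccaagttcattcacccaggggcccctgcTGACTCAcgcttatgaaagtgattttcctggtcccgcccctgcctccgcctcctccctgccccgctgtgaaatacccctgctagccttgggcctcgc

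TGACTCA occurs in 5.20% of all 32851 such windows. Of the 24 leading genes 15 have a window, and 1 of these genes has a match. TGACNNNGC, the core of the antioxidant response element, has no match in the Osgin1 window and occurs in 12.4% of all windows. These motifs were chosen after the values had been seen, and a match is a description of the letters only.

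Alas1, the first enzyme of heme synthesis and its rate-limiting step in liver, had 214, 276 and 200.3 TPM after PBS and 854, 453 and 494 TPM after MDA-MB-231 EVs. The group means were 230.2 ± 40.3 and 600.1 ± 221 TPM (SD, n = 3), a log2 change of 1.33 ± 0.45 (95% interval 0.30 to 2.37), and 1.40 without PBS 1 and MDA-MB-231 EV 3. Heme serves the cytochromes P450 among other proteins. The iron sensors of the hepatocyte showed narrow groups without overlap. Hfe, which relays body iron to hepcidin, had 12.8, 13.8 and 13.2 TPM after PBS and 29.1, 24.4 and 24.1 TPM after MDA-MB-231 EVs, a log2 change of 0.90 ± 0.37. Tfr2, transferrin receptor 2, which acts in the same pathway, had 89.7, 103 and 95.8 TPM against 226, 150.1 and 177 TPM, a change of 0.91 ± 0.40. The change of Hfe ran from 0.82 to 0.95 over the fits with 1 library left out. Hamp, the hepcidin gene itself, had 5144, 7174 and 17718 TPM against 9796, 9417 and 14082 TPM, so its groups overlapped. Cp, the ferroxidase ceruloplasmin, had 216, 173 and 295 TPM against 779, 294 and 300.4 TPM, with 1 high library after MDA-MB-231 EVs. In the iron and copper list 17 of 18 genes were above 0 and 15 over the all-gene median, with a list median of 0.46 (0.30 to 0.66) (quantile normalization 0.37).

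Sult2a2, a sulfotransferase of steroids and bile acids, had 14.5, 12.7 and 17.2 TPM after PBS, a tight group, and 117, 50.9 and 25.4 TPM after MDA-MB-231 EVs, a wide one. Its change was 1.80 ± 0.58, and 1.24 to 2.32 over the fits with 1 library left out. The near relative Sult2a1 overlapped, at 32.2, 49.3 and 112 TPM against 139, 156 and 80.3 TPM, and reads shared between these copies may be split between them. Ces1e, a carboxylesterase, had 35.8, 42.1 and 21.9 TPM after PBS and 90.03, 53.99 and 112 TPM after MDA-MB-231 EVs, without overlap. Its neighbours Ces1d (133, 224 and 70 against 869, 351 and 214 TPM) and Ces1g (3.51, 14.01 and 11.6 against 61.6, 35.9 and 10.2 TPM) were highest in MDA-MB-231 EV 1 and overlapped. Among carboxylesterases 9 of 12 were above 0, 8 over the all-gene median, and the list median was 0.61 (0.45 to 0.98). Ugt1a1, which conjugates bilirubin, had 15.5, 52.3 and 35.1 TPM against 319, 127 and 35.6 TPM. Ugt1a9, which shares its last exons, had 16.8, 65.6 and 37.8 TPM against 305, 162 and 38.3 TPM. Both were far higher in MDA-MB-231 EV 1 than in MDA-MB-231 EV 3, where they lay within the PBS range.

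Sult2a1, Acot3 and Cyp3a41a belong to the genes higher in female than in male mouse liver. Of that list 14 of 15 genes were above 0 and 12 over the all-gene median (list median 0.54, 0.25 to 0.76). Acot3, a peroxisomal acyl-CoA thioesterase, had 5.57, 17.5 and 6.75 TPM after PBS and 139.7, 33 and 14.9 TPM after MDA-MB-231 EVs. Cyp3a41a, a cytochrome P450, had 8.97, 11.9 and 61.9 TPM against 107, 192 and 22.4 TPM, with both groups spread over several fold. Of the male-biased list 4 of 12 were above 0 (median -0.23, and -0.51 to 0.26 over the fits with 1 library left out). The major urinary proteins, pheromone carriers made in male liver, had 3 of 17 above 0 and a median of -0.71, which went from -2.13 to 0.44 with 1 library left out. Mup3 is an example, with 322, 913 and 915 TPM after PBS and 353, 1039 and 14.4 TPM after MDA-MB-231 EVs, a span within the second group of over 1 order of magnitude. The labels do not give the sex of the mice. Xist, the RNA of the inactive X chromosome of females, had 320.2, 43.7 and 69.6 TPM after PBS and 36.8, 7.11 and 273 TPM after MDA-MB-231 EVs. The Y-linked Ddx3y, Eif2s3y, Kdm5d and Uty reached at most 0.13 TPM in any of the 6 libraries.

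Cish, an inhibitor that STAT5 induces and that dampens growth hormone and cytokine receptors, had 4.52, 0.54 and 3.3 TPM after PBS and 8, 9.1 and 9.63 TPM after MDA-MB-231 EVs. The 3 vesicle libraries were close to each other and above all PBS libraries, a log2 change of 1.57 ± 0.53 (95% interval 0.35 to 2.80) that became 1.94 without PBS 1 and 1.89 with MDA-MB-231 EV 3 left out as well. Over the fits with 1 library left out it ran from 1.02 to 1.94, lowest without PBS 2. The related inhibitor Socs2 had 26.4, 7.18 and 16.9 TPM against 40.3, 20.2 and 176 TPM, with MDA-MB-231 EV 3 far above the rest. Igf1, the growth factor that growth hormone induces in liver, lay on the other side, at 2184, 929.9 and 1914 TPM after PBS and 482, 1145 and 1418 TPM after MDA-MB-231 EVs (-0.77 ± 0.59), with overlap. Cish is shown with its start region because STAT5 is its known regulator: 125 bases, of which 100 lie before the start and 25 after, with both matches to TTCNNNGAA, the STAT motif, in capitals (chr9:107296559-107296683, plus strand, GRCm38.p6, RefSeq).

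Cish promoter: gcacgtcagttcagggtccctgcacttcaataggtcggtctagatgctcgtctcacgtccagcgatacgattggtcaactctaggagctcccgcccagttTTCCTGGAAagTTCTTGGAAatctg

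The matches begin at bases 1 and 12 of the transcript. TTCNNNGAA reads the same on both strands in its fixed letters and occurs in 8.30% of all 32851 windows. Of the 15 leading genes with a window, matched by symbol, 4 have a match: Alas1, Cish, Lrrc28 and Lsmem2. The first value is a share of windows and the second a count of genes.

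One-carbon metabolism moves methyl groups through folate and methionine, and Gnmt, which uses surplus S-adenosylmethionine, is among the most abundant liver enzymes. It had 259.6, 896 and 347 TPM after PBS and 2771, 1899 and 752 TPM after MDA-MB-231 EVs, with overlap through PBS 2 and MDA-MB-231 EV 3, and a log2 change of 1.87 ± 0.67 (2.04 without PBS 1 and MDA-MB-231 EV 3). Mat1a, which makes S-adenosylmethionine in liver, had 556, 897 and 839 TPM against 1884, 1188 and 1201 TPM. Shmt1, the cytosolic serine hydroxymethyltransferase, had 80.2, 95.8 and 80.03 TPM against 165, 131 and 194 TPM. Aldh1l1, a folate enzyme, had 394, 320.0 and 425 TPM against 674, 549 and 787 TPM. These last 3 were higher without overlap, by 0.89 ± 0.45, 0.91 ± 0.40 and 0.81 ± 0.42, among 16 list genes of which 13 were above 0 and 9 over the all-gene median. Of all genes 5.18% were higher without overlap. The list median was 0.26 (0.09 to 0.52), near that of all genes, and 0.02 after quantile normalization. Amino acid enzymes gave the like picture of a few genes apart. The transaminase Got1 had 113, 119.5 and 105 TPM after PBS and 197, 186 and 379 TPM after MDA-MB-231 EVs, a change of 1.09 ± 0.45. Hgd, of tyrosine breakdown, had 222, 247 and 193 TPM against 386, 330 and 542 TPM. Nags, whose product switches on the urea cycle, had 19.4, 18.9 and 30.3 TPM against 46.1, 46.1 and 30.3 TPM, in contact but without overlap. In the urea cycle list 9 of 11 were above 0 (median 0.43, 0.35 to 0.62).

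The remaining higher genes have less known roles in liver. Nudt19, a peroxisomal CoA diphosphatase, had 4.82, 14.4 and 12.6 TPM after PBS and 38.5, 27.6 and 21.9 TPM after MDA-MB-231 EVs (1.47 ± 0.50). Polr1c, a subunit of RNA polymerases I and III, had 3.2, 9.79 and 5.81 TPM against 36.2, 17.97 and 12.1 TPM (1.63 ± 0.55). Tbc1d1, a Rab GTPase regulator of glucose uptake in muscle, had 3.37, 3.77 and 2.36 TPM against 6.67, 7.74 and 9.03 TPM (1.09 ± 0.38). Ttc23 had 16.5, 18 and 10.6 TPM against 36.01, 29.8 and 37.2 TPM and a change of 1.17 ± 0.40. For Ankrd55 the values were 15.6, 7.63 and 9.83 TPM against 52.3, 16.7 and 55.5 TPM (1.70 ± 0.56), with MDA-MB-231 EV 2 just above PBS 1. Lrrc28 had 3.4, 9.32 and 4.02 TPM against 16.7, 21.3 and 10.6 TPM (1.44 ± 0.49). The 11 leading higher genes given here kept a positive change in every alternative tried. Where libraries were left out or weighted no other sign was possible, since these genes were picked for groups without overlap.

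**Figure D3:**
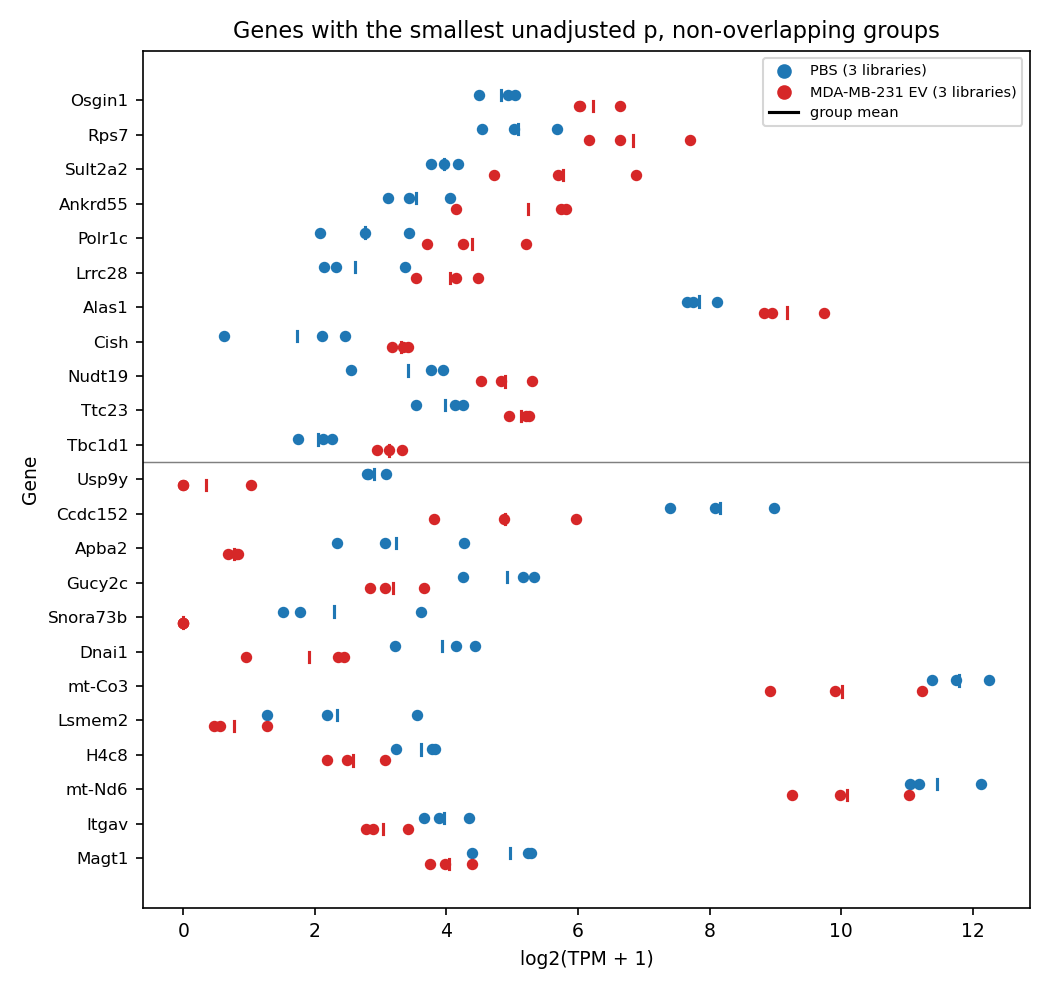
Values of log2(TPM + 1) in each library, PBS in blue and MDA-MB-231 EV in red with short bars for the group means, for 11 of the 12 higher (top) and the 12 lower (bottom) genes of smallest unadjusted p with non-overlapping groups, the higher of which averages at least 5 TPM. The gap between groups is narrow for Ankrd55, Magt1 and mt-Nd6, and widest for Usp9y.

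Among the lower genes is Ccdc152, a coiled-coil gene. It had 168, 271 and 505 TPM in PBS 1 to 3 and 12.99, 28.4 and 61.4 TPM in MDA-MB-231 EV 1 to 3. Its groups lay far apart, with a log2 change of -3.27 ± 0.66 (95% interval -4.80 to -1.75). This was the 1 leading gene called in any alternative: without PBS 1 and MDA-MB-231 EV 3 the change was -4.19, with a limma adjusted p of 0.0101. In the GENCODE M21 annotation of GRCm38 the Ccdc152 gene lies on the minus strand and shares 439 bases with the end of Selenop on the plus strand. Selenop, the selenium carrier of plasma, had 149, 969 and 719.8 TPM after PBS and 3083, 1831 and 199 TPM after MDA-MB-231 EVs, with overlap. The sources used here do not give whether the kit kept strand, and without it reads of the shared stretch cannot be assigned to either gene, so the Ccdc152 values are uncertain.

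Apba2, a neuronal adaptor protein, had 18.2, 4.07 and 7.41 TPM after PBS and 0.74, 0.78 and 0.6 TPM after MDA-MB-231 EVs, so 1 group was narrow and near 0 and the other wide. Gucy2c, the guanylate cyclase receptor of intestinal epithelium, had 18.02, 35.03 and 39.2 TPM against 6.18, 11.7 and 7.39 TPM (-1.72 ± 0.47; -2.06 to -1.52 with any 1 library left out). The ciliary dynein gene Dnai1 had 8.28, 20.7 and 16.6 TPM against 4.45, 4.11 and 0.93 TPM (-2.02 ± 0.56). Usp9y, a Y-linked deubiquitinase, had 7.43, 6.01 and 5.94 TPM against 0, 0 and 1.03 TPM, listed at 0 in 2 libraries. The other 4 Y-linked genes looked up were at or under 0.13 TPM, and Xist was above 0 in all 6 libraries, as given above. Whether the Usp9y values come from the Y chromosome was not tested. Lsmem2, whose identifier is classed long non-coding in GENCODE M21, had 10.7, 1.42 and 3.54 TPM against 0.47, 0.38 and 1.41 TPM, its gap resting on 0.01 TPM between PBS 2 and MDA-MB-231 EV 3. None of these 5 was above 40 TPM in any library.

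The other lower genes act in adhesion, chromatin and the secretory path. Itgav, the integrin alpha V chain, which binds extracellular matrix, had 19.2, 11.6 and 13.8 TPM after PBS and 6.39, 9.72 and 5.85 TPM after MDA-MB-231 EVs, a change of -0.94 ± 0.41 (unadjusted p = 0.0508), and -0.62 without PBS 1 and MDA-MB-231 EV 3. Magt1, a magnesium transporter and part of the oligosaccharyl transferase, had 36.9, 19.97 and 37.99 TPM against 14.7, 19.9 and 12.5 TPM (-0.94 ± 0.44), with PBS 2 and MDA-MB-231 EV 2 level. H4c8, a replication-dependent histone H4 gene, had 13.2, 8.38 and 12.7 TPM against 3.52, 7.37 and 4.59 TPM (-1.04 ± 0.42), and its copies elsewhere in the histone clusters are near identical. H2bc6 was also without overlap, at 22.9, 1.18 and 0.83 TPM against 0.03, 0.46 and 0.27 TPM, with PBS 1 far above the rest. The 21 histone genes tested had 10 above 0 and a median of -0.15, which ran from -0.42 to 0.28 with 1 library left out.

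Mitochondrially encoded genes, the 13 protein genes of the mitochondrial chromosome, had 1 above 0 and a median of -1.15. mt-Co3, a cytochrome oxidase subunit, had 4893, 2678 and 3439.9 TPM after PBS and 484, 2404 and 957 TPM after MDA-MB-231 EVs, a change of -1.78 ± 0.64. mt-Nd6, a complex I subunit and the 1 protein gene of the light strand, had 4479, 2340.2 and 2120 TPM against 1017, 610.5 and 2103 TPM (-1.36 ± 0.59), with PBS 3 and MDA-MB-231 EV 3 almost level. The highly abundant mt-Co1 overlapped, at 53138, 30833 and 16041 TPM after PBS and 17707, 8896 and 15294 TPM after MDA-MB-231 EVs. For the list, the median with 1 library left out ran from -1.57 to -0.65, nearest to 0 without PBS 1, and without PBS 1 and MDA-MB-231 EV 3 it was -1.02. By contrast the nuclear genes of the same respiratory complexes, 77 in all, had 51 above 0 and a median of 0.16 (-0.29 to 0.39), which turned to -0.09 after quantile normalization. Fewer mitochondria and less RNA in each cannot be told apart in these values.

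Some genes were listed at 0 throughout 1 group. In all 3 MDA-MB-231 EV libraries 9 genes were at 0 that were above 0 in all 3 PBS libraries, and 2 genes were so the other way. Gm10288, a pseudogene, had 20.1, 127 and 151 TPM after PBS and 0 TPM in each MDA-MB-231 EV library, and Gm8741, another, had 1.36, 3.31 and 2.97 TPM. The small nucleolar RNA Snora73b had 2.4, 11.2 and 1.86 TPM after PBS. Sh3gl2, an endophilin of synapses, had 9.93, 0.04 and 0.02 TPM, so its difference rested on PBS 1 alone. The others were 7SK, Gm14232, Gm43107, Gm45837 and Gm48275. Of the 2 at 0 after PBS, Hmga1b had 37.8, 0.08 and 0.21 TPM and the pseudogene Trmt112-ps2 37.8, 0.65 and 3.71 TPM after MDA-MB-231 EVs. Hmga1, the chromatin protein gene of which Hmga1b is a near copy, had 3.38, 8.39 and 4.12 TPM after PBS and 17.2, 11.96 and 8.31 TPM after MDA-MB-231 EVs, a change of 1.13 ± 0.47. A 0 in this table can be a failed estimate and reads of near-identical copies can be split, so no fold is given for these genes.

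With single libraries left out, other genes reached the threshold, and most of them were listed at 0 throughout 1 of the groups compared. Without PBS 1 the count became 28, all lower, of which 27 were listed at 0 in every library but PBS 2 and PBS 3. Snord13, a small nucleolar RNA, is an example, with 0, 434 and 104 TPM after PBS and 0 TPM after MDA-MB-231 EVs. Without MDA-MB-231 EV 3 the count was 8, of which 1 was protein coding: Tanc2, a synaptic scaffold gene, had 62.5, 28.2 and 34.3 TPM after PBS and 0.58, 1.79 and 69.4 TPM after MDA-MB-231 EVs. Without both it was 42, with 4 higher and 38 lower, 36 of them listed at 0 throughout 1 of the remaining groups and 4 protein coding. Fyb, an adaptor protein of hematopoietic cells, had 46.2, 33.7 and 43.2 TPM after PBS and 4.89, 3.33 and 63.9 TPM after MDA-MB-231 EVs. For Tanc2 and Fyb alike MDA-MB-231 EV 3 held the highest value of all 6 libraries and the other MDA-MB-231 EV libraries the lowest. Tanc2, Fyb and Snord13 were chosen after their values were seen.

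**Figure D4:**
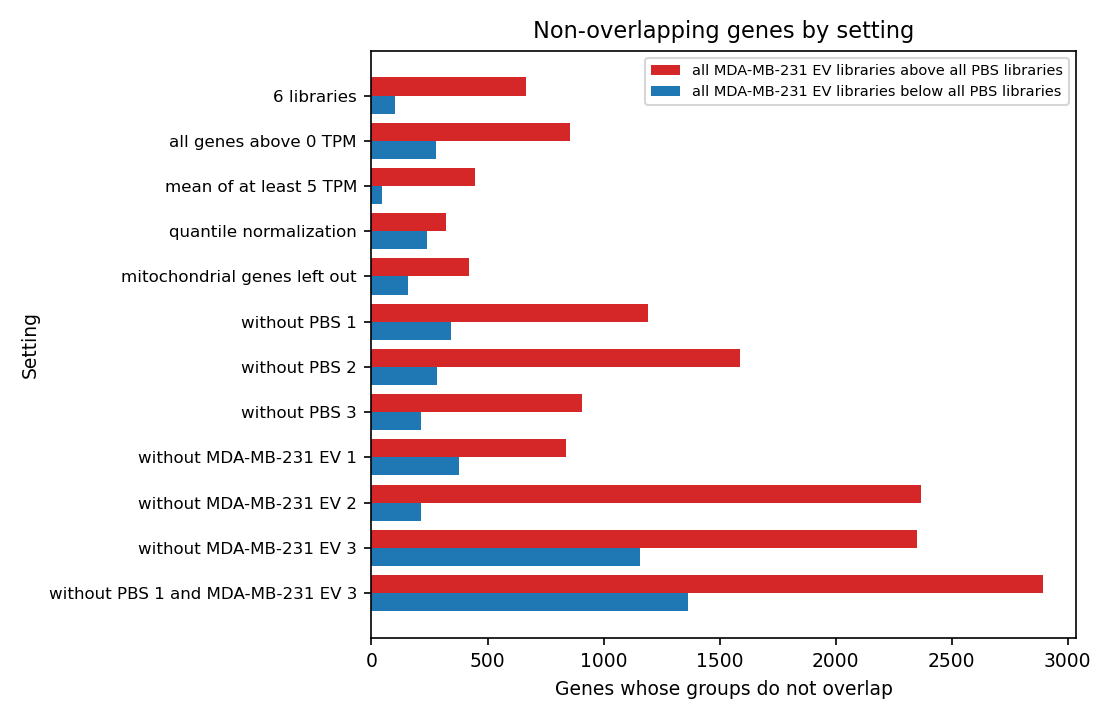
Numbers of genes whose groups do not overlap, higher (red) and lower (blue) after MDA-MB-231 EVs, with all 6 libraries and under each setting that changes them. Higher genes outnumber lower genes in every setting shown, from 322 against 240 after quantile normalization to 2892 against 1362 without PBS 1 and MDA-MB-231 EV 3, and fewer libraries leave more room for gaps.

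The most abundant genes did not separate the groups. The 8 highest outside the mitochondrial chromosome were Apoa2, Alb, Apoe, Apoc1, Trf, Apoa1, Apoc3 and Hamp, and together they held 16.8% to 27.6% of TPM. Alb, serum albumin, had 15893, 25683 and 53709 TPM after PBS and 65814, 37636 and 13114 TPM after MDA-MB-231 EVs. Trf, the iron carrier transferrin, had 3405, 26149 and 26415 TPM against 21661, 40793 and 7262 TPM, lowest in PBS 1 and MDA-MB-231 EV 3. Apoa1, the main protein of HDL, was steadier, at 17952, 20342 and 25279.5 TPM against 18436, 18517 and 20515 TPM. At the other end were the best measured genes, those of at least 50 TPM with the narrowest intervals. Mrpl15, a mitochondrial ribosomal protein, had 48.9, 51.9 and 48.7 TPM after PBS and 76.4, 88.7 and 76.5 TPM after MDA-MB-231 EVs, a change of 0.68 ± 0.38 (95% interval -0.20 to 1.56). Lactb2, a mitochondrial endoribonuclease, lay on the other side without overlap, at 72.8, 77.8 and 81.9 TPM against 61.3, 57.3 and 54.9 TPM (-0.42 ± 0.38). The other 3, Emg1, Paip2 and Zfand6, overlapped, with changes of 0.16, -0.09 and -0.22, of which that of Emg1 turned to -0.12 after quantile normalization.

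Gene lists were described by their counts and medians beside those of all genes: 69.8% above 0, a median of 0.21, and 5.18% higher and 0.784% lower without overlap. Of 71 lists, 66 had at least 5 tested genes, and 43 of these had a median above that of all genes and 23 below. In 24 of the 66 the list median stayed on the same side in each of the 6 fits with 1 library left out, 16 above and 8 below. The side was taken against the median of all genes in the same fit. No gene of any list was called, against 0% of all genes.

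**Figure D5:**
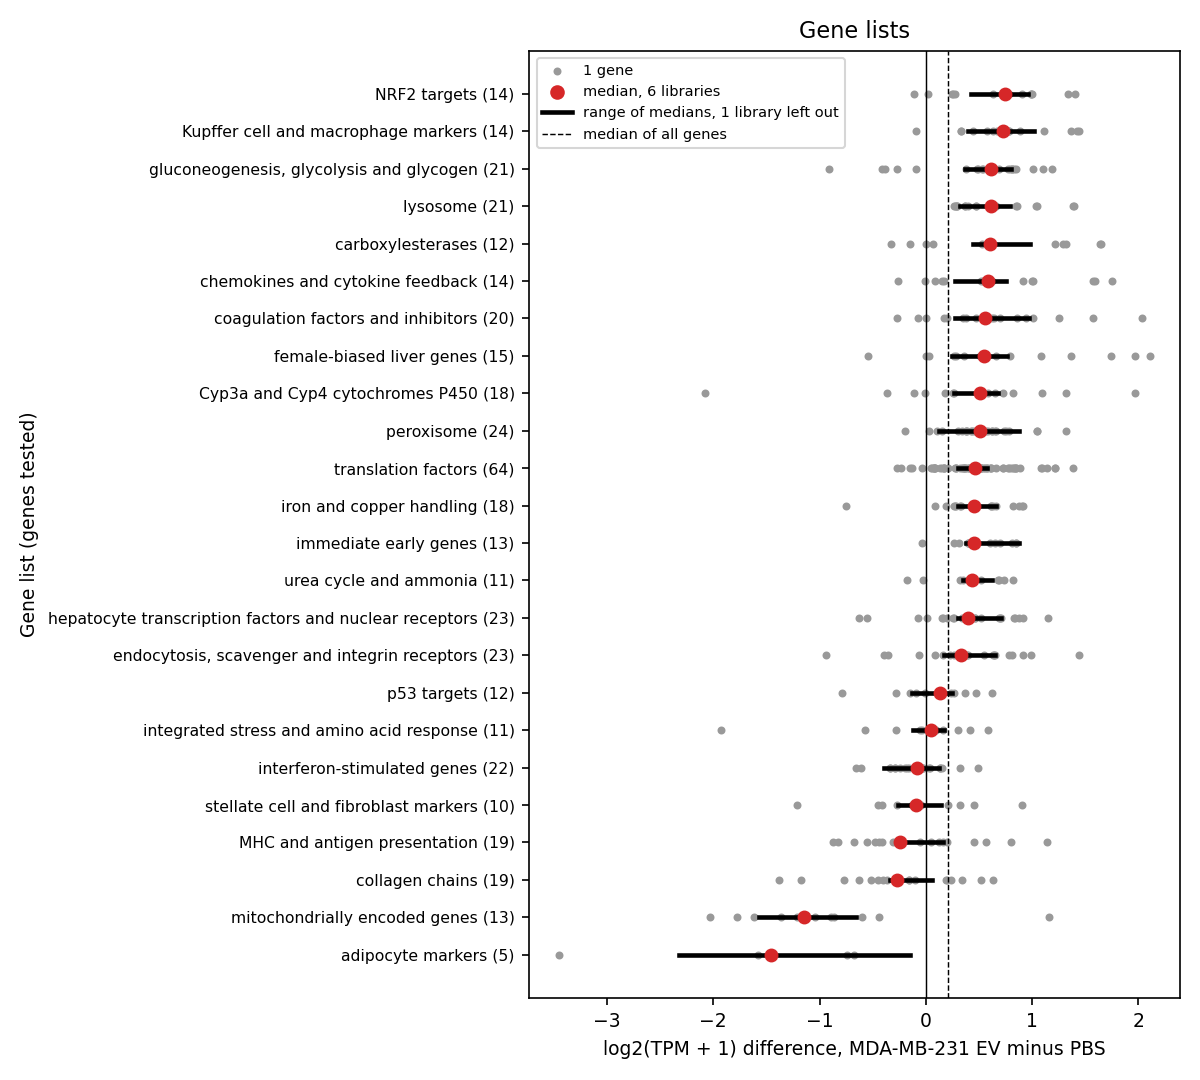
The 24 lists whose median kept its side of the median of all genes of the same fit with any 1 library left out. The dashed line is the median of all genes with all 6 libraries, 0.21. With 1 library left out the median of all genes ran from 0.12 to 0.40, so bars can cross the line. Grey points are genes, red points list medians over all 6 libraries and black bars the range of medians with 1 library left out. The highest medians are near 0.75 and the lowest near -1.5.

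Lysosomes break down what a cell takes up, and peroxisomes oxidise fatty acids and urate. All 21 lysosome genes were above 0 and over the all-gene median, with a median of 0.61 (0.32 to 0.79 with 1 library left out, 0.38 after quantile normalization), beside the macrophage values given further on. Of these 21 genes 1 was higher without overlap, beside 5.18% of all genes. Ctsh, the protease cathepsin H, had 77.2, 167 and 80.6 TPM after PBS and 513, 275 and 137 TPM after MDA-MB-231 EVs, with overlap. Of 24 peroxisome genes 23 were above 0 (median 0.51, 0.13 to 0.88). At the least, with 1 library left out, the list median lay 0.005 above that of all genes in the same fit. Uox, urate oxidase, had 138, 159 and 181 TPM against 1044, 224 and 268 TPM. Pex6, of peroxisome assembly, had 9.36, 11.4 and 5.64 TPM against 19, 15.7 and 12.1 TPM. Both were without overlap.

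Translation factors, which start and extend protein synthesis on the ribosome, had 59 of 64 above 0, a median of 0.47 (0.31 to 0.58) and 8 genes higher without overlap, beside 5.18% of all genes. At the least, with 1 library left out, the list median lay 0.02 above that of all genes in the same fit. Eif3a, the largest subunit of initiation factor 3, had 11.3, 13.7 and 7.36 TPM after PBS and 45.4, 16.4 and 22.8 TPM after MDA-MB-231 EVs (1.22 ± 0.50). Eif3b had 15.4, 26.4 and 17.5 TPM against 38.01, 35.2 and 30.5 TPM. Eif4g1, a scaffold of cap binding, had 45.2, 56.9 and 49.6 TPM against 135, 94.6 and 59.6 TPM. Cytosolic ribosomal proteins had 69 of 79 above 0, a median of 0.41 (0.06 to 0.64) and 7 higher without overlap, beside the same 5.18%. Rps7, a protein of the small subunit and by unadjusted p the second of the leading higher genes, had 31.6, 50.4 and 22.4 TPM after PBS and 207, 71.2 and 98.8 TPM after MDA-MB-231 EVs, without overlap (1.75 ± 0.54; 1.82 without PBS 1 and MDA-MB-231 EV 3). Its pseudogene Rps7-ps3, looked up after the values were seen, had 178, 600.2 and 564 TPM against 329.7, 568 and 404 TPM, more than Rps7 itself in every library and with overlap. Rps2 had 246, 433 and 281 TPM against 821, 877 and 445 TPM. The median of the ribosomal list was 0.04 without PBS 1 and MDA-MB-231 EV 3, against 0.20 for all genes in that fit. Ribosomal protein genes have many processed pseudogenes, so their TPM depends on how shared reads were assigned. Mrpl3, of the mitochondrial ribosome, had 4, 10.3 and 2.83 TPM against 20.6, 13.7 and 11.3 TPM (1.39 ± 0.51), while its list of 77 had a median of 0.16 (-0.06 to 0.35), which turned to -0.08 after quantile normalization.

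Plasma proteins varied with the library. Coagulation genes had 18 of 20 above 0 and a median of 0.56 (0.28 to 0.97). F13b, a subunit of the clot-stabilising factor XIII, had 12.02, 22.7 and 14.6 TPM after PBS and 119, 44.1 and 22.4 TPM after MDA-MB-231 EVs, with overlap by a narrow margin. Fga, the fibrinogen alpha chain, had 95.8, 525 and 375 TPM against 3889, 1323 and 256 TPM, with MDA-MB-231 EV 1 far highest. Apolipoprotein genes had 7 of 13 above 0 and a median of 0.01 (-0.23 to 0.32), below that of all genes. Higher without overlap was 1 member, beside 5.18% of all genes. That member, Apoa5, which promotes triglyceride clearance, had 329, 570.4 and 564 TPM against 2749.8, 1318 and 683 TPM and no overlap, a change of 1.51 ± 0.60. Complement genes had 17 of 22 above 0 and a median of 0.45 (0.14 to 0.65), with 1 member higher without overlap, beside 5.18% of all genes. This member was C6, of the membrane attack complex, at 4.28, 8.08 and 6.63 TPM against 11.8, 10.3 and 9.4 TPM. The acute phase list had 13 of 16 above 0. Its gene Serpina3m, a serpin with many close copies, had 38.6, 156 and 86.3 TPM against 527, 334 and 102 TPM. The list median of 0.51 ran from -0.16 to 0.83 with 1 library left out. Without PBS 1 and MDA-MB-231 EV 3 it was 0.09, against 0.20 for all genes in that fit.

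Sugar and lipid enzymes had more genes above the median of all genes than below it. In gluconeogenesis, glycolysis and glycogen 16 of 21 were above it, with a median of 0.62 (0.37 to 0.80). Tkfc, triokinase of fructose breakdown, had 57.7, 57.1 and 84.2 TPM after PBS and 118, 113 and 125 TPM after MDA-MB-231 EVs. Pfkl, liver phosphofructokinase, had 7.08, 6.68 and 5.33 TPM against 15.8, 8.15 and 13.3 TPM. Both were without overlap. Fatty acid oxidation and ketogenesis had 22 of 24 above 0 and a median of 0.55 (0.12 to 1.03). Of these 24 genes 0 were higher without overlap, beside 5.18% of all genes. Hsd17b13 and Scarb1, given next, belong to other lists. Hsd17b13, a lipid droplet enzyme of hepatocytes, had 103, 95.7 and 106 TPM after PBS, within 10 TPM of each other, and 416, 215 and 151 TPM after MDA-MB-231 EVs (1.22 ± 0.49). Scarb1, the HDL receptor, had 27.5, 38.03 and 38.4 TPM against 137, 57.98 and 40.7 TPM.

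Hepatocyte transcription factors and nuclear receptors had 20 of 23 above 0, a median of 0.39 (0.30 to 0.71) and 4 higher without overlap, beside 5.18% of all genes. Foxa1, a pioneer factor, had 1.87, 1.7 and 2.95 TPM after PBS and 3.91, 3.72 and 4.52 TPM after MDA-MB-231 EVs. Esr1, the estrogen receptor, had 7.23, 5.34 and 4.6 TPM against 7.39, 9.56 and 12.9 TPM. Onecut1, of hepatocyte and bile duct development, had 1.03, 0.13 and 0.58 TPM against 3.02, 3.81 and 1.04 TPM, low in all libraries. Immediate early genes, the first to respond to many stimuli, had 12 of 13 above 0 and a median of 0.45 (0.38 to 0.87). Without PBS 1 and MDA-MB-231 EV 3 their median was 0.20, level with the 0.20 of all genes in that fit. Of the 13 genes 0 were without overlap, beside 5.18% higher and 0.784% lower of all genes. Xbp1, the splice-regulated factor of the unfolded protein response, had 16.8, 29.7 and 24.1 TPM against 107, 77.8 and 21.9 TPM. The p53 list had a median of 0.14 (-0.13 to 0.25) and the integrated stress list of 0.05 (-0.12 to 0.17), both below that of all genes and turning to -0.10 and -0.15 after quantile normalization.

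Lists with medians below that of all genes included those of antigen presentation, interferon and matrix. MHC and antigen presentation had 8 of 19 above 0 and a median of -0.24 (-0.25 to 0.16). B2m, the light chain of MHC class I, had 3029.7, 3848 and 4759.6 TPM after PBS and 2202, 4024 and 1533 TPM after MDA-MB-231 EVs. The class I gene H2-Q4, with close copies, had 13.1, 21.1 and 17.4 TPM against 55.9, 21.1 and 23.4 TPM. Interferon-stimulated genes had 7 of 22 above 0, 2 over the all-gene median, and 0 without overlap, beside 5.18% higher and 0.784% lower of all genes. Their changes ran from -0.66 to 0.49. Collagen chains had 6 of 19 above 0 and a median of -0.27 (-0.33 to 0.06). Col18a1, the source of endostatin, was the 1 without overlap, beside 5.18% of all genes higher in that way. It lay on the other side, at 179, 146 and 159 TPM against 299.5, 181 and 287 TPM.

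Markers of the other liver cells varied between libraries. Kupffer cell and macrophage markers had 13 of 14 above 0, a median of 0.72 (0.40 to 1.02 with 1 library left out) and summed levels of 347 to 789 TPM after PBS and 635 to 1001 TPM after MDA-MB-231 EVs. Marco, a scavenger receptor, had 15.6, 45.8 and 24.8 TPM against 39.6, 80.5 and 120.0 TPM. Timd4, a receptor for dying cells, had 5.1, 6.82 and 4.05 TPM against 7.99, 9.64 and 11.7 TPM, without overlap. Cxcl13, a B cell chemokine that is not in the macrophage list, had 2.72, 9.55 and 5.06 TPM against 9.31, 18.2 and 31.5 TPM. Lysosome genes are abundant in macrophages as well as hepatocytes, and the part of Kupffer cells in their values was not tested. Stellate cell and fibroblast markers had 4 of 10 above 0, with sums of 397 to 688 and 244 to 717 TPM. Acta2, smooth muscle actin, had 6.56, 12.8 and 3.64 TPM against 2.35, 1.02 and 4.78 TPM with overlap. Krt19, a keratin of bile ducts, had 3.11, 5.59 and 2.85 TPM against 1.13, 1.43 and 2.82 TPM, lower without overlap, beside cholangiocyte sums of 37.6 to 130.4 and 42.2 to 49.9 TPM. Sinusoidal endothelial markers summed to 161 to 331 and 172 to 372 TPM, and neutrophil markers to 20.7 to 81.9 and 29.1 to 221 TPM, the highest in MDA-MB-231 EV 3. Adipocyte markers reached 518 TPM in 1 PBS library, PBS 2, against at most 25.02 TPM after MDA-MB-231 EVs, and with 0 of 5 genes above 0 the list median was -1.45, and -0.15 without PBS 2.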

How the data were processed

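Liver RNA of 3 PBS and 3 MDA-MB-231 EV libraries was compared. The authors deposited TPM values per gene. HISAT2, StringTie, RSEM and the build GRCm39 are named in the submitters' processing notes, without versions or order, and the labels' protocols name the TruSeq kit and 1 µg of total RNA. TPM keeps no read depth, so depth per library is unknown and no counting interval is given. Genes with an Ensembl identifier and a mean of at least 1 TPM entered, on the log2(TPM + 1) scale, a fit with limma 3.58.1 (R 4.3.3, trended prior variance, two-sided, 6 libraries), with Benjamini-Hochberg adjustment over all 12885 genes and a threshold of 0.05. The fit was run on simulated data with independent noise and no library standing apart. That checks the code and does not measure power in these libraries. GENCODE M21 (GRCm38), which matched 98.8% of the genes, gave gene classes and the Ccdc152 overlap.

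Alternatives were a pseudocount of 0.1, other filters (all genes above 0 TPM, a mean of at least 5 TPM), quantile normalization, rescaling without mitochondrial genes, array weights, all 9 libraries in the fit, a replicate block, each library left out and, added after seeing the data, PBS 1 and MDA-MB-231 EV 3 left out together. Named genes are the 12 higher and 12 lower of smallest p with non-overlapping groups, the higher of which averages at least 5 TPM, without predicted genes and pseudogenes, the 8 most abundant, the 5 of at least 50 TPM with the narrowest interval, hepatocyte markers, and up to 4 of smallest p per list. Some genes the rule picks, 1 of the leading higher genes among them, are not reported here. The 71 gene lists, the genes and the comparison were chosen with earlier results of these data known. Promoter and miRNA sequences are from RefSeq tables of GRCm38.p6, a build other than that of the files; 15 of the 24 leading genes had an entry.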

Additional observations from a re-analysis of the deposited data

How the results depend on the processing

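Depth is unknown, 3 libraries per group leave wide intervals, and PBS 1 and MDA-MB-231 EV 3 stand apart, so each count depends on the libraries kept. The number of genes at an adjusted p under 0.05 was 0 with all libraries, 1 with a pseudocount of 0.1 and 1 with array weights (Gm10288 in both), 0 to 28 with 1 library left out and 42 without PBS 1 and MDA-MB-231 EV 3. The number at an unadjusted p under 0.05, 173, became 353 with all genes above 0 TPM, 690 with array weights, 72 to 904 with 1 library left out (lowest without PBS 3, highest without MDA-MB-231 EV 3) and 678 without both. Array weights gave PBS 3 a weight of 8.77 and the other libraries 0.31 to 1.56, so the PBS side of that fit rests mainly on PBS 3. Higher genes without overlap, 667, became 444 with a mean of at least 5 TPM, 322 after quantile normalization, 420 without mitochondrial genes, 840 to 2370 with 1 library left out and 2892 without both. Lower genes, 101, became 276 with all genes above 0 TPM, 47 with at least 5 TPM, 240 after quantile normalization, 157 without mitochondrial genes, 212 to 1156 with 1 library left out and 1362 without both. The filters also change the number of genes tested, 24620 with all genes above 0 TPM and 7785 with at least 5 TPM. Without overlap, 3.48% of the 24620 were higher and 1.12% lower, and 5.70% of the 7785 were higher and 0.604% lower. These shares stand beside 5.18% and 0.784% in the main fit. Smaller groups overlap less by construction.

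The percentage of genes above 0, 69.8%, was 67.9% with a pseudocount of 0.1, 63.3% with all genes above 0 TPM, 71.1% with at least 5 TPM, 53.4% after quantile normalization, 60.7% without mitochondrial genes, 68.5% with array weights, 56.9% to 79.3% with 1 library left out and 64.9% without both. The number of genes with an interval between -1 and 1, 263, was 62 with a pseudocount of 0.1, 10937 with all genes above 0 TPM, 1345 after quantile normalization, 1023 with array weights, 845 with all 9 libraries in the fit, and 0 to 340 with 1 library left out. The cause was not tested. The mitochondrial share kept its direction throughout, between -10.6 and -2.47 percentage points with 1 library left out.

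Of 93 genes whose values are given, leaving aside those listed at 0 throughout a group, 86 kept their sign in every alternative. For those among them picked for groups without overlap, leaving out libraries could not turn the sign. The other 7 are Emg1, 4 abundant genes, Rps7-ps3 and Xist. Quantile normalization took Emg1 from 0.16 to -0.12, Apoa1 from -0.13 to 0.49 and Rps7-ps3 from 0.11 to -0.14. Array weights took Alb from 0.19 to -0.23, Trf from 0.48 to -0.071, Hamp from 0.33 to -0.52 and Rps7-ps3 to -0.34. Without mitochondrial genes Rps7-ps3 was at -0.009. With 1 library, or PBS 1 and MDA-MB-231 EV 3, left out Alb ran from -0.33 to 0.83, Trf from -0.50 to 1.16, Apoa1 from -0.30 to 0.002, Hamp from -0.23 to 0.85, Rps7-ps3 from -0.46 to 0.42 and Xist from -2.52 to 0.02. Ccdc152 (-4.19), Fyb (-2.95) and Tanc2 (-3.93) were called without PBS 1 and MDA-MB-231 EV 3, and Tanc2 (-4.26) also without MDA-MB-231 EV 3 alone. Of the list medians in alternatives, 960 moved by less than the pooled SD of library medians, 0.33, and 99 by more. The replicate block gave 0 genes at an adjusted p under 0.05 and 0 with an interval between -1 and 1. Same-numbered libraries had correlations of their deviations from the group means of -0.28, 0.49 and -0.38. PBS 1 and MDA-MB-231 EV 3, which stand apart, had 0.62 with each other. These values cannot show whether the numbers pair the samples.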
